A study of Rattus norvegicus with 6 samples.

Results

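The 39 genes described here form the liver's system for making, sensing, moving and exporting cholesterol. They were chosen by name, as the probes whose RefSeq accession maps to one of 39 rat gene symbols. The names were chosen with earlier results of these data known, so comparisons with all features are descriptive. They comprise 18 synthesis enzymes, 4 sterol sensing genes, 8 genes of sterol transport and esterification, and 9 lipoprotein genes, out of 28995 features tested. Liver RNA of 6 male Sprague-Dawley rats was hybridised to single-colour Agilent arrays, each animal on its own array. The vehicle group of 3 rats received corn oil, and the treated group of 3 rats received bromodichloromethane, a trihalomethane by-product of water chlorination, at 200 mg/kg/day. All animals were bought at 5 weeks of age and kept on a basal diet with tap water. The labels name 28 days as the time of measurement but 9 weeks as the length of administration, so the exposure time is not settled.

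Cholesterol is built from acetyl-CoA through mevalonate, isoprenoid units, squalene and lanosterol. When sterols in the endoplasmic reticulum are low, the escort protein Scap carries the transcription factor Srebf2 to the Golgi for activation, and Insig proteins hold the pair back when sterols are plentiful. Hepatocytes secrete cholesterol in lipoproteins, pass it to high-density lipoprotein, or export it into bile through the paired transporters Abcg5 and Abcg8.

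All 39 genes were measured, and the chosen probe of each was well above background on all 6 arrays. The array carried 74 probes for them, of which 71 were kept. The 1 Srebf2 probe left out was well above background on 0 of 3 corn oil and 2 of 3 treated arrays. The 2 Abcg8 probes left out were well above background on 0 arrays of either group. Of all probes, 62.5% ± 1.34 (SD, n = 3) were well above background after corn oil and 66.0% ± 0.787 (SD, n = 3) after treatment, and 0 were saturated. Precision is limited by there being 3 arrays a group. Slide 1 held all corn oil animals together with treated replicate 1, while the other treated animals were on slide 2, which was a separate scan. Array values below are log2 signals relative to the 75th percentile of that array, so 0 is that percentile, and they are compared within a gene only. Fold changes are treated minus corn oil, fitted with limma, and a gene is said to have risen or fallen when its adjusted p, over all 28995 features, was under 0.05. In RNA from whole liver, fewer cells of a type and less RNA per cell cannot be told apart.

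Most of the cholesterol genes lay slightly lower in treated livers, and few of them passed the test. Sc5d, an enzyme near the end of cholesterol synthesis, and Abcg8, a subunit of the biliary sterol exporter, fell, and 0 of the 39 rose (2, Abcg1 and Mttp, were higher at an unadjusted p under 0.05). The 2 calls are 5.13% of the 39 genes, against 9.36% of all features tested (5.96% higher and 3.41% lower). At an unadjusted p under 0.05, 15 of 39 (38.5%) were reached, against 27.5% of all features. The groups did not overlap for 17 of 39 (43.6%), against 34.4% of all features. Of these, 15 were lower in treated livers, where 16.0% of all features were, and 2 were higher, where 18.3% of all features were. The median difference was -0.20 over the 39 genes and 0.00 over all features, and 28 of the 39 differences were below 0 (all features: 49.8%).

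By role, differences of the synthesis enzymes and of the transport and lipoprotein genes had similar medians. Among the 18 enzymes 1 fell and 13 differences were below 0, with a median of -0.21. Among the 17 transport and lipoprotein genes 1 fell and 12 were below 0, with a median of -0.20. The 4 sensing genes had 0 calls and a median of -0.15. Differences at or below -0.5 belonged to 8 of the 18 enzymes and to 2 transport genes, Abcg5 and Abcg8, and to 0 lipoprotein and 0 sensing genes. Of all 28995 features, 2158 were at or below -0.5. Of the 8 enzymes only Sc5d passed. Differences at or above 0.5 belonged to 0 of the 39 genes and to 2836 of all features. Every difference is measured against its own array's 75th percentile. Scaling by the spiked-in control transcripts shifted the median of all features to 0.48, changed the sign of 18 of the 39 genes and gave medians of 0.27, 0.34, 0.32 and 0.28 for the synthesis, sensing, transport and lipoprotein genes, so the small falls hold only relative to the other transcripts.

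**Figure D1:**
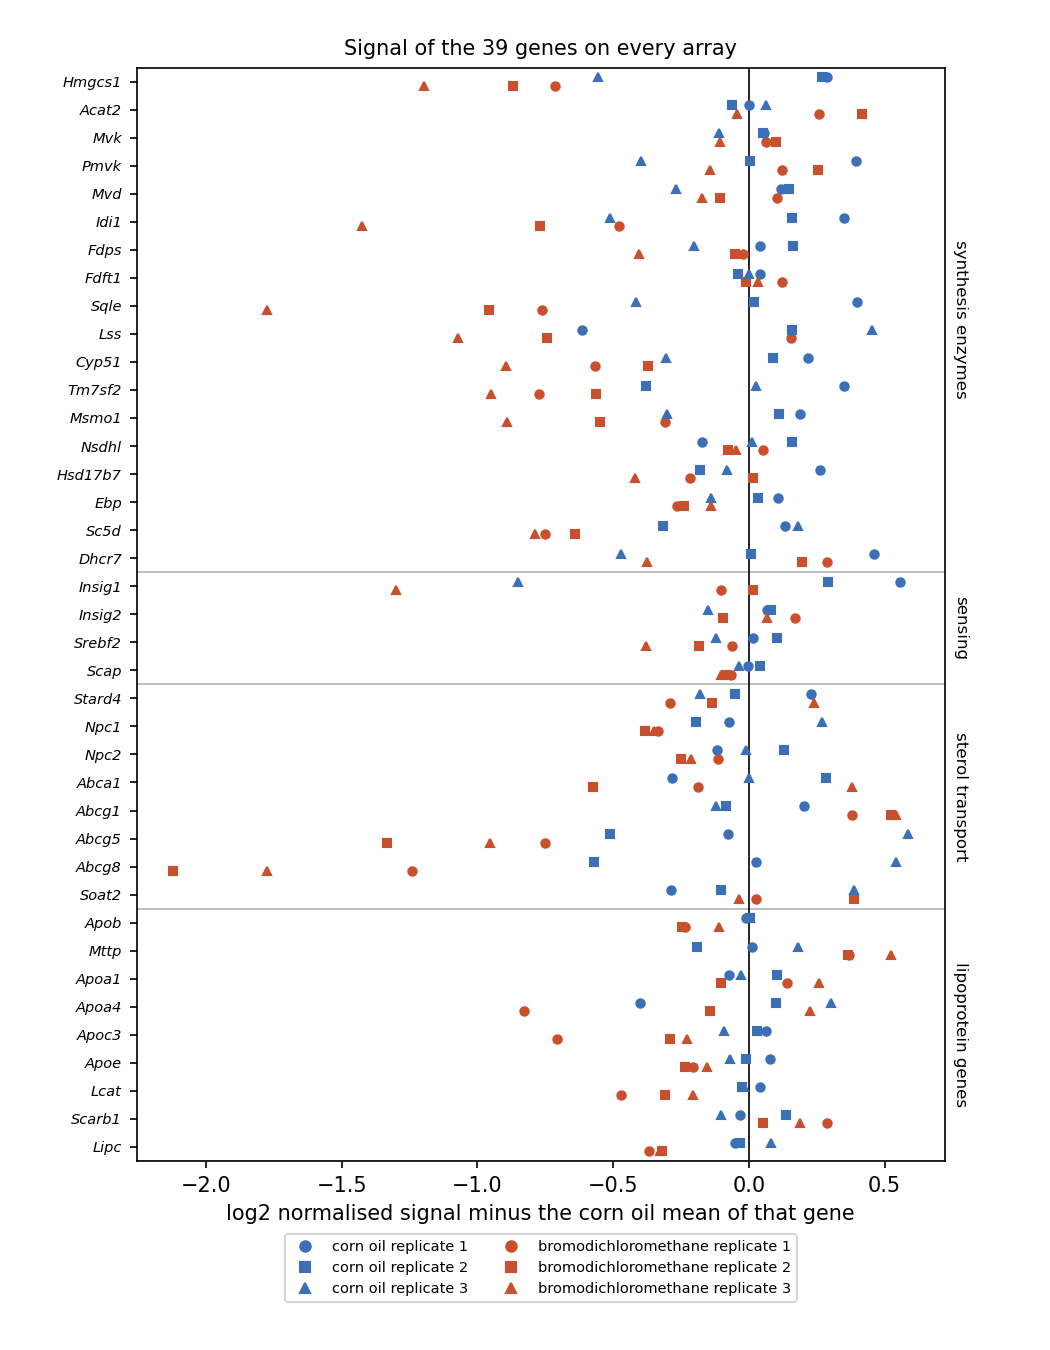
Log2 normalised signal of each of the 39 genes on every array, minus that gene's corn oil mean (blue, corn oil; red, bromodichloromethane; circles, squares and triangles are replicates 1, 2 and 3, which are different animals). The treated points of Abcg8, Sqle, Hmgcs1, Tm7sf2 and Sc5d lie left of all their corn oil points, and those of Abcg1 and Mttp lie right of them.

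Sc5d, lathosterol oxidase, introduces the double bond that turns lathosterol into 7-dehydrocholesterol. Its signal was 3.56, 3.11 and 3.61 in corn oil livers and 2.67, 2.79 and 2.64 in treated livers. All 3 treated animals lay below all 3 corn oil animals, and the treated animals were close together. The fall was 1.66-fold (log2 fold change -0.73, SE 0.15, 95% interval -1.09 to -0.36, adjusted p = 0.0382). When 1 animal was left out, the difference stayed between -0.88 and -0.64, but the call was lost without corn oil replicate 1 (adjusted p = 0.0949) or 3 (0.0895) or treated replicate 1 (0.0903), 2 (0.103) or 3 (0.102), and kept only without corn oil replicate 2 (0.0393). It was -0.75 on slide 1 alone (adjusted p = 0.252) and -0.24 with spike-in scaling (adjusted p = 0.312).

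Abcg8, which pairs with Abcg5 at the canalicular membrane to export sterols into bile, had the lowest fitted difference of the 39 genes. Its signal was -2.41, -3.01 and -1.90 in corn oil livers and -3.68, -4.56 and -4.22 in treated livers. Every treated animal lay below every corn oil animal. In fluorescence units before scaling, the probe read 125.7, 90.4 and 203.5 against 64.3, 34.8 and 40.2, which is dim on these arrays. Its other 2 probes were well above background on 0 of 3 corn oil and 0 of 3 treated arrays, so the result rests on 1 probe. The fall was 3.28-fold (log2 fold change -1.71, SE 0.34, 95% interval -2.53 to -0.89, adjusted p = 0.0336). Leaving out 1 animal gave -2.00 to -1.44 and ended the call each time, at adjusted p = 0.0813 without corn oil replicate 1, 0.0541 without 2 and 0.0686 without 3, and at 0.0515, 0.106 and 0.0908 without treated replicates 1, 2 and 3. With normexp background correction, which adds an offset to dim signals, the difference was -1.06 (adjusted p = 0.0108), and on slide 1 alone it was -1.24 (adjusted p = 0.289).

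The start regions are shown for the 2 genes that fell. The Sc5d window has GC boxes and the Abcg8 window has none, where 34.9% of all windows have one. Each window runs from 250 bases before to 50 after the RefSeq start in the rat assembly GRCr8, 5′ to 3′ on the gene's own strand, and capitals mark matches to the CCAAT box (CCAAT, or ATTGG for the other strand) and the GC box (GGGCGG on either strand). Sc5d lies on the minus strand at chr8:51538228-51538527, and Abcg8 on the minus strand at chr6:15717681-15717980.
Sc5d: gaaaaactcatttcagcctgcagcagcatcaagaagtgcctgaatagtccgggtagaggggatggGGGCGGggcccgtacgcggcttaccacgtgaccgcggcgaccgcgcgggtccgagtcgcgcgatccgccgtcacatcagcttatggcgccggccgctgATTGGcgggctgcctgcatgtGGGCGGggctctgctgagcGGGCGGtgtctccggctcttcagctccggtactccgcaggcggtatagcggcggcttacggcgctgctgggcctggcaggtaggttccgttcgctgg
Abcg8: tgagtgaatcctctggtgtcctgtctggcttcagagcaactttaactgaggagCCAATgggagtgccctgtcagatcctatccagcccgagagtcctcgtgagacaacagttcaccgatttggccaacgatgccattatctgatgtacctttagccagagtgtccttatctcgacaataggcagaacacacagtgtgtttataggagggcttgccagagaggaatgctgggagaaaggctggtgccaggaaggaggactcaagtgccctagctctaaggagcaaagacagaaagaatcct

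The Sc5d window holds 1 CCAAT box, which begins 87 bases before the start, and 3 GC boxes, which begin 185, 66 and 47 bases before it. The Abcg8 window holds 1 CCAAT box, 197 bases before its start. Abcg5 starts on the opposite strand 206 bases away, so that the windows of this divergent pair share 295 of 300 bases. The same CCAAT box begins 13 bases before the Abcg5 start, and it is counted for both genes among the transport windows below. RefSeq windows were matched for 28 of the 39 genes. A CCAAT box was found in 12 of 15 synthesis windows (80.0%), 3 of 4 sensing, 3 of 5 transport and 2 of 4 lipoprotein windows, against 37.7% of 27457 windows of the same length. A GC box was found in 13 of 15 synthesis windows (86.7%), 3 of 4 sensing, 3 of 5 transport and 1 of 4 lipoprotein windows, against 34.9% of all windows. The core of the sterol regulatory element that Srebf2 binds, searched as TCACNCCAC on both strands, was in 0 of the 28 windows and in 1.13% of all windows. At so low a share, 0 of 28 windows tells little, and elements with other letters or outside the windows were not searched. These matches describe letters in a window and were not tested for function.

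Among enzymes that lead to isoprenoid units, Hmgcs1 and Idi1 had the lowest differences. Hmgcs1, which makes HMG-CoA, had signals of 6.81, 6.80 and 5.97 in corn oil livers and 5.81, 5.66 and 5.33 in treated livers. The groups did not overlap, although corn oil replicate 3 lay nearer to the treated animals than to its own group. The difference was -0.93 (SE 0.26, 1.90-fold lower, 95% interval -1.56 to -0.29, adjusted p = 0.0795), and its other probes both gave -0.93. Without corn oil replicate 3 it was -1.21 and passed (adjusted p = 0.0362). Idi1, which isomerises isopentenyl diphosphate, had signals of 2.34, 2.15 and 1.48 against 1.51, 1.22 and 0.56. Corn oil replicate 3 fell below treated replicate 1, so the groups overlapped, and the difference of -0.89 did not pass (SE 0.32, 95% interval -1.66 to -0.13, adjusted p = 0.133).

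The other genes of this stretch differed little. The thiolase gene Acat2, which condenses acetyl-CoA units, gave 0.21 (SE 0.13), and the mevalonate-handling genes Mvk, Pmvk and Mvd gave 0.02 (SE 0.10), 0.08 (SE 0.22) and -0.06 (SE 0.15). Fdps, which joins isoprenoid units into farnesyl diphosphate, gave -0.16 (SE 0.15). None of these 5 genes passed, with adjusted p between 0.363 for Acat2 and 0.929 for Mvk. The 95% interval of Mvk ran from -0.22 to 0.26, and that of the noisier Pmvk from -0.45 to 0.61.

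In the squalene steps, neighbouring enzymes had different sizes of difference. Fdft1, squalene synthase, gave 0.05 (SE 0.08, 95% interval -0.15 to 0.25, adjusted p = 0.756). Sqle, squalene epoxidase and a rate-limiting enzyme of the pathway, had signals of 2.53, 2.14 and 1.71 in corn oil livers and 1.36, 1.17 and 0.35 in treated livers. All treated values lay below all corn oil values, and treated replicate 3 was lowest. The difference of -1.17 was the lowest among the enzymes but did not pass (SE 0.32, 2.24-fold lower, 95% interval -1.94 to -0.39, adjusted p = 0.0755), and its other probe gave -0.96. Lss, lanosterol synthase, had signals of 0.19, 0.97 and 1.26 against 0.96, 0.06 and -0.27. Its groups overlapped widely, with a difference of -0.55 (SE 0.40, adjusted p = 0.418) that was 0.16 on slide 1 alone.

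Of the genes that turn lanosterol into cholesterol, Sc5d fell and 3 more had groups that did not overlap. Over all 18 enzymes the groups did not overlap for 6 (33.3%), close to the 34.4% of all features. These were 6 lower and 0 higher, where 16.0% and 18.3% of all features were. Cyp51, the lanosterol demethylase, had signals of 2.40, 2.27 and 1.88 in corn oil livers and 1.62, 1.81 and 1.29 in treated livers (difference -0.61, SE 0.19, adjusted p = 0.101). Tm7sf2, a sterol reductase of the same stage, had signals of 5.48, 4.75 and 5.16 against 4.36, 4.57 and 4.18 (difference -0.76, SE 0.21, adjusted p = 0.0719). Msmo1, which oxidises the methyl groups at carbon C-4, had signals of 5.00, 4.92 and 4.51 against 4.50, 4.26 and 3.91 (difference -0.58, SE 0.20, adjusted p = 0.119). In each of the 3 genes the lowest treated signal was that of treated replicate 3. The dimmer Tm7sf2 probe gave -0.89 and passed when every probe was tested on its own (adjusted p = 0.0406), so the result for this gene depends on the probe.

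The remaining late enzymes did not pass. Nsdhl and Hsd17b7, which complete C-4 demethylation, gave -0.02 (SE 0.11) and -0.21 (SE 0.16). Ebp, the sterol isomerase, gave -0.21 (SE 0.10, adjusted p = 0.228). Dhcr7, which makes cholesterol from the product of Sc5d, had signals of 3.14, 2.69 and 2.21 in corn oil livers and 2.97, 2.88 and 2.31 in treated livers. The groups overlapped throughout, and the difference of 0.04 had a 95% interval from -0.65 to 0.72 (SE 0.28, adjusted p = 0.949).

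**Figure D2:**
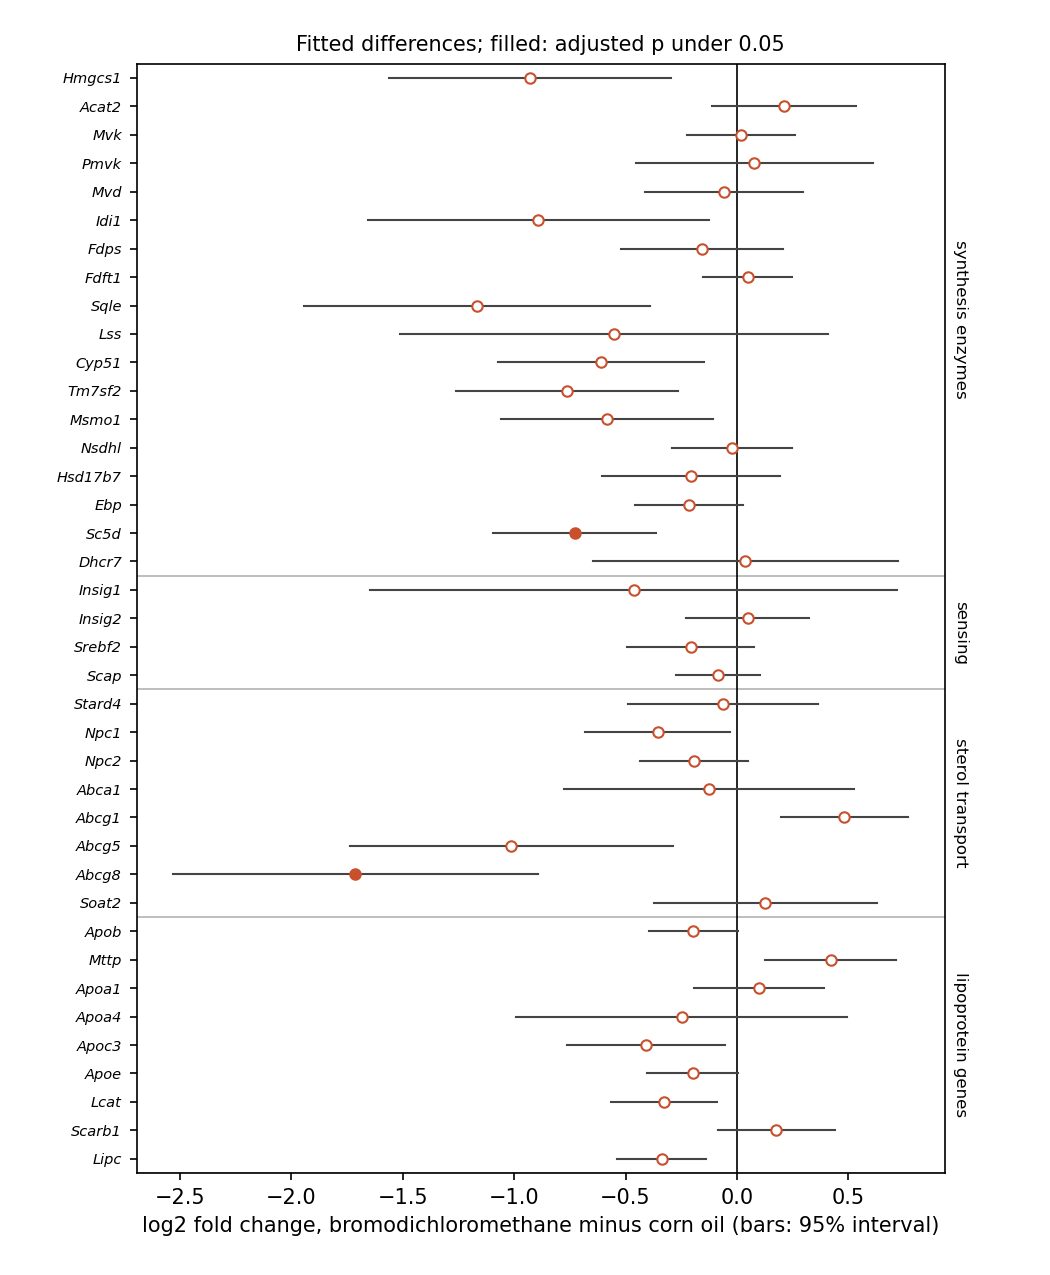
Fitted log2 fold change of each of the 39 genes, treated minus corn oil, with its 95% interval (3 animals per group; filled points have an adjusted p under 0.05). The enzymes range from -1.17 for Sqle to 0.21 for Acat2, and the filled points are Sc5d at -0.73 and Abcg8 at -1.71.

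The synthesis enzymes also varied together between animals of the same group. Treated replicate 3 had the lowest treated signal for 15 of 18 enzymes (83.3%), where it was lowest for 31.0% of all features. Corn oil replicate 3 had the lowest corn oil signal for 11 of 18 (61.1%), against 33.4% of all features, and corn oil replicate 1 had the highest for 12 of 18 (66.7%), against 37.2%. The median deviation of the enzymes from their group mean was 0.16, 0.04 and -0.17 for corn oil replicates 1, 2 and 3, and 0.08, 0.10 and -0.23 for treated replicates 1, 2 and 3. This spread among animals is of the size of the median difference between the groups. Lipoprotein genes had another order in the treated group: treated replicate 3 was highest for 7 of 9 (77.8%), against 36.2% of all features. In the corn oil group each replicate was highest for 3 of the 9. Replicate numbers only name the animals, and what sets the spread was not tested.

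**Figure D3:**
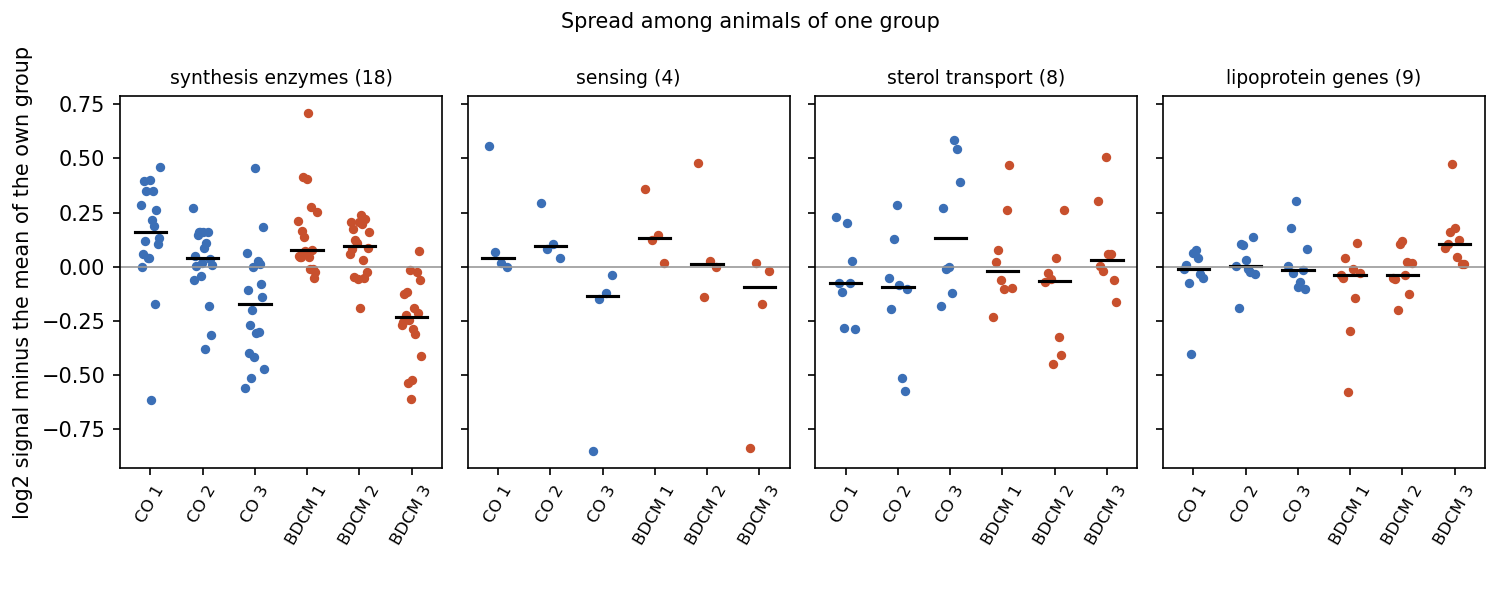
Log2 signal of each gene minus the mean of its own group, by animal (CO, corn oil, blue; BDCM, bromodichloromethane, red; each point is a gene and bars are medians over the genes). The enzyme medians of CO 3 and BDCM 3 are -0.17 and -0.23, the lowest of their groups, while BDCM 3 is highest among treated animals for the lipoprotein genes.

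Of the 4 sterol sensing genes 0 passed (0 at an unadjusted p under 0.05, against 27.5% of all features). Insig1, which holds back Scap and is itself a target of Srebf2, had signals of 6.14, 5.87 and 4.73 in corn oil livers and 5.48, 5.60 and 4.28 in treated livers. The lowest animal of each group stood well below its group mates, so the difference of -0.46 had a wide interval (SE 0.49, 95% interval -1.65 to 0.72, adjusted p = 0.588), and its 4 probes gave -0.56 to -0.38. Its low animals were corn oil replicate 3 and treated replicate 3, those in which most enzymes were lowest. Insig2, the second retention protein, had signals of 4.77, 4.79 and 4.56 against 4.88, 4.61 and 4.77 (difference 0.05, SE 0.11, adjusted p = 0.825). Srebf2 had signals of 2.39, 2.48 and 2.26 against 2.31, 2.20 and 2.00 (difference -0.21, SE 0.12, adjusted p = 0.309), and its other kept probe gave 0.04. Scap, the escort, had signals of 2.49, 2.54 and 2.46 against 2.43, 2.41 and 2.39. Its groups did not overlap, but the difference was small, -0.08, with a 95% interval from -0.27 to 0.10 (SE 0.08, adjusted p = 0.526).

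In sterol export, the partners of the biliary exporter were both lower and the macrophage-type exporter Abcg1 was higher. Abcg5, the partner of Abcg8, had signals of 3.31, 2.87 and 3.97 in corn oil livers and 2.64, 2.05 and 2.43 in treated livers. The groups did not overlap, and the corn oil animals were ordered as for Abcg8, with replicate 3 highest and replicate 2 lowest. The difference was -1.01 and did not pass (SE 0.30, 2.02-fold lower, 95% interval -1.74 to -0.29, adjusted p = 0.0893). Abcg1, which loads cholesterol onto high-density lipoprotein and is prominent in macrophages, had signals of 2.01, 1.72 and 1.69 against 2.19, 2.33 and 2.35. All treated values lay above all corn oil values, with a difference of 0.48 that missed the threshold (SE 0.12, 1.40-fold higher, 95% interval 0.20 to 0.77, adjusted p = 0.0569) and passed in 7 of 22 alternative settings. Abca1, which exports cholesterol to apolipoprotein A-I, had signals of 0.48, 1.04 and 0.76 against 0.57, 0.19 and 1.14. These groups overlapped throughout (difference -0.13, SE 0.27, adjusted p = 0.801).

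Inside the cell, Npc1, which moves cholesterol out of lysosomes, had signals of 4.44, 4.32 and 4.78 in corn oil livers and 4.18, 4.13 and 4.16 in treated livers. Its groups did not overlap, and the difference of -0.36 did not pass (SE 0.13, adjusted p = 0.152). Its 7 probes did not give a single direction and ran from -0.36 to 0.26. Its luminal partner Npc2 gave -0.19 (SE 0.10, adjusted p = 0.267). Stard4, a cytosolic sterol carrier, gave -0.06 (SE 0.18, adjusted p = 0.854), with -0.40 from its other probe. Soat2, which esterifies cholesterol for storage and secretion, gave 0.13 (SE 0.21, adjusted p = 0.737).

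Of the 9 lipoprotein genes 0 passed the test, and 4 (44.4%) had an unadjusted p under 0.05, against 27.5% of all features. The groups did not overlap for 6 of the 9, with 5 lower and 1 higher (all features: 34.4%, with 16.0% lower and 18.3% higher). In the assembly of very low-density lipoprotein, Mttp, the transfer protein that loads lipid onto apolipoprotein B, had signals of 3.18, 2.98 and 3.35 in corn oil livers and 3.54, 3.53 and 3.69 in treated livers. Apob, the structural protein of that particle, had signals of 8.21, 8.23 and 8.23 against 7.99, 7.98 and 8.12. Thus every treated animal was above the corn oil animals for Mttp and below them for Apob. The difference of Mttp was 0.42 (SE 0.12, 1.34-fold higher, 95% interval 0.13 to 0.71, adjusted p = 0.0846), with 0.51 from its other probe. That of Apob was -0.20 (SE 0.08, adjusted p = 0.188), with -0.21 to -0.16 over its 5 probes.

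The enzymes that remodel circulating lipoproteins were lower without passing. Lipc, hepatic lipase, had signals of 4.55, 4.56 and 4.68 in corn oil livers and 4.23, 4.28 and 4.27 in treated livers. The groups were tight and separate, with a difference of -0.34 that just missed the threshold (SE 0.08, 1.26-fold lower, 95% interval -0.54 to -0.14, adjusted p = 0.0566). It passed in 6 of 22 alternative settings, but with spike-in scaling the difference was 0.15 (adjusted p = 0.472). Lcat, which esterifies cholesterol on high-density lipoprotein, had signals of 6.80, 6.74 and 6.74 against 6.29, 6.45 and 6.55. Here too the groups were separate (difference -0.33, SE 0.10, 95% interval -0.57 to -0.09, adjusted p = 0.0912).

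Among apolipoproteins and receptors, Apoc3, an inhibitor of lipoprotein lipase, had signals of 9.58, 9.55 and 9.43 in corn oil livers and 8.81, 9.23 and 9.29 in treated livers (difference -0.41, SE 0.15, adjusted p = 0.136). Treated replicate 1 stood below the other treated animals. Apoe, a ligand for remnant uptake, had signals of 9.84, 9.75 and 9.69 against 9.56, 9.53 and 9.61, and its groups did not overlap (difference -0.20, SE 0.08, adjusted p = 0.192). Apoa1, the main protein of high-density lipoprotein, gave 0.10 (SE 0.12, adjusted p = 0.646), and its receptor gene Scarb1 gave 0.18 (SE 0.11, adjusted p = 0.346). Apoa4, an apolipoprotein of triglyceride-rich particles, gave -0.25 (SE 0.31, adjusted p = 0.648), with treated replicate 1 lowest and replicate 3 highest in the treated group.

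**Figure D4:**
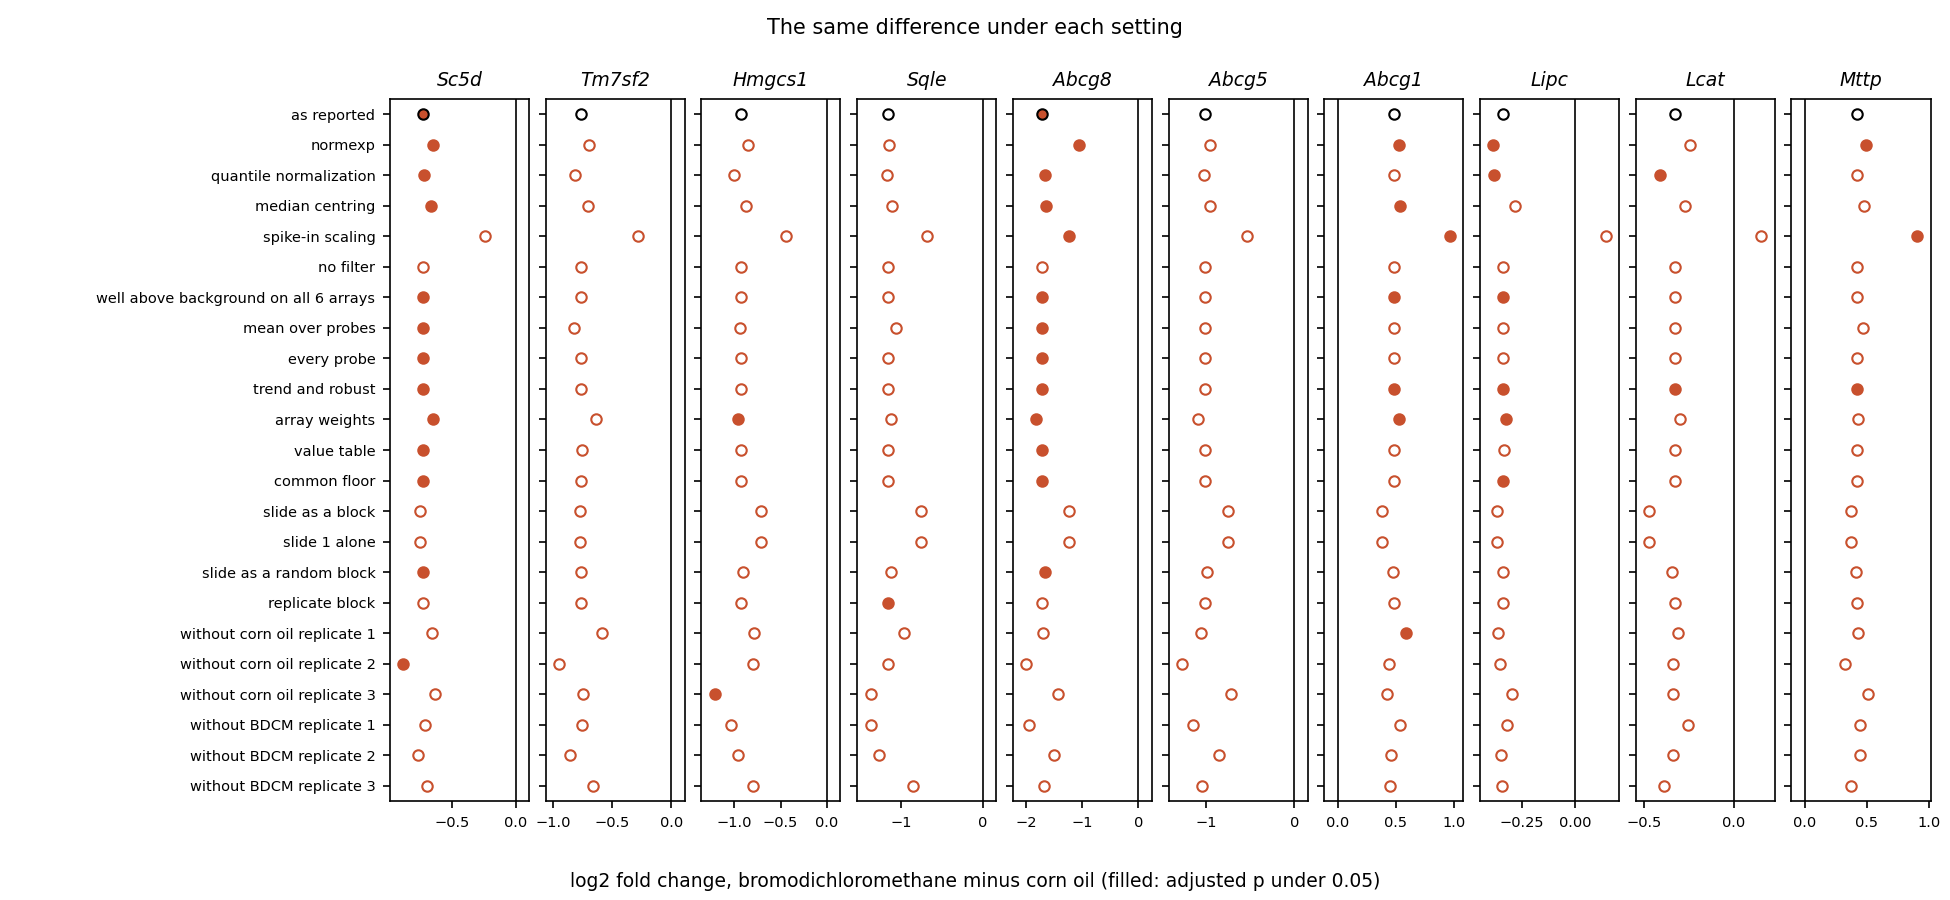
Log2 fold change, treated minus corn oil, of 10 genes under the reported setting (top) and 22 alternatives (filled points have an adjusted p under 0.05). Sc5d and Abcg8 stay below 0 throughout and pass in 12 alternatives each, while Lipc and Lcat cross 0 with spike-in scaling.

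A list of 50 other sterol and lipoprotein genes, of which 46 were on the array and 43 measured, had 1 gene that rose and 3 that fell (9.30% called, close to the 9.36% of all features), with 39 that did not pass and a median difference of -0.11. Apom, the apolipoprotein that carries sphingosine 1-phosphate on high-density lipoprotein, had signals of 7.03, 7.03 and 7.14 in corn oil livers and 5.89, 6.0 and 6.23 in treated livers. Its groups were separated by a wide gap, and it fell 2.04-fold (log2 fold change -1.03, SE 0.11, adjusted p = 0.00977). Apoa2, the second protein of high-density lipoprotein, had signals of 8.81, 8.66 and 8.52 against 8.22, 8.08 and 7.98 and fell 1.48-fold (log2 fold change -0.57, SE 0.12, adjusted p = 0.0359). Sort1, a sorting receptor, had signals of -1.99, -2.00 and -1.96 against -1.44, -1.48 and -1.71 and rose 1.35-fold (log2 fold change 0.44, SE 0.10, adjusted p = 0.0487). In each of these 3 genes the groups did not overlap. When each animal was left out in turn, Apom stayed called except without treated replicate 2 (adjusted p = 0.0519), and Apoa2 and Sort1 lost the call each time (adjusted p = 0.0557 to 0.117 and 0.0571 to 0.156). With spike-in scaling Apom differed by -0.55 and Apoa2 by -0.09 (adjusted p = 0.635). Sort1 lost the call when its 3 kept probes were averaged (difference 0.35, adjusted p = 0.108). Of 22 alternatives, Apom passed in 20, Apoa2 in 10 and Sort1 in 9.

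Markers of the liver's cell types moved beside these genes, and their part in the results was not tested. Of 12 hepatocyte markers 2 fell, Serpina1 and Cps1, 11 differences were below 0 and the median was -0.26, while of all features 3.41% fell, 49.8% were below 0 and the median was 0.00. Their summed level, in multiples of the 75th percentile, was 5737 to 6558 in corn oil livers and 4754 to 5387 in treated livers. Of 7 recruited macrophage markers, Gpnmb, Trem2 and Lgals3 rose, where 5.96% of all features rose. These genes were well above background on all 6 arrays. The lists were chosen with earlier results of these data known, so such shares describe and do not test. Mmp12 also passed, but it was well above background on 2 of 3 corn oil arrays, and Ccr2 on 1 of 3. Both were therefore kept only through the treated group, and no rise is counted from either. Ccr2 was dim in treated livers too (-4.24, -4.40 and -4.90). Spp1, Cd9 and Ccr2 did not pass (adjusted p = 0.810, 0.555 and 0.122). The summed level of the 7 was 12.0 to 13.2 against 24.0 to 53.0, and most of it came from the brightest, Lgals3 and Gpnmb. Of 7 Kupffer cell markers 0 passed (1 at an unadjusted p under 0.05, against 27.5% of all features), with summed levels of 98.8 to 134 against 85.9 to 119. Other lists had calls for Lyve1 (1 of 5 endothelial, lower), Epcam (1 of 6 bile duct, higher) and Cd3e (1 of 8 lymphocyte, higher), against the same shares of all features. Cd3e was well above background on 0 of 3 corn oil arrays and was kept through the treated group, and its difference was 0.23 with a common floor (adjusted p = 0.301) and 0.10 with normexp (adjusted p = 0.503), so no rise is read from it. Of the rest, 0 of 9 stellate and 0 of 5 red cell markers passed (0 and 3 at an unadjusted p under 0.05, against 27.5% of all features). With each animal left out in turn, the calls of Serpina1 and Lyve1 were lost each time, while those of Cps1, Gpnmb, Trem2, Lgals3 and Epcam were kept in 1 to 4 of the 6 fits. The red cell sum was 525 to 780 in corn oil livers and 350 to 502 in treated livers.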

How the data were processed

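Per the labels' protocols, Cy3-labelled liver RNA of 6 separate rats, 3 per group, was hybridised to Agilent arrays. The submitters' processing notes name Agilent Feature Extraction 10.7 for the scans. The deposited scanner files hold a background-subtracted linear fluorescence intensity per spot, per the file headers. The authors' deposited value table holds a linear ratio, which is the processed intensity over the 75th percentile of the array: all probes with a ratio above 0.05 lay within 1% of it. The column medians are 0.0953 to 0.102. Its values are not centred, and it served as an alternative.

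Of 61657 non-control probes, 27 with flagged spots were left out, and 27460 (44.5%) matched 1 symbol, 0 several and 34197 none through RefSeq accessions (GRCr8, a later build than that of the files, used for names and start windows only). Intensities were taken to log2, and each array's 75th percentile was subtracted. A probe was kept if well above background on all 3 arrays of a group, and the brightest kept probe stood for a gene. The comparison of the groups used limma 3.58.1 and R 4.3.3 (lmFit and eBayes, two-sided, Benjamini-Hochberg adjustment over 28995 features), and the fit was tested on simulated data. Intervals are 95% and SE is the moderated standard error.

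Alternatives were normexp, quantile, median and spike-in scaling, other filters, probe rules and eBayes options, array weights and the value table. Others were a common floor, slide and replicate blocks, slide 1 alone, and each animal left out. Normexp was run on the median signal and median background of each spot, with an offset of 50. Members and lists were chosen with earlier results of these data known. Genes named with array values were those past the threshold, at least the 4 with the smallest p in each role, and callers from the other sterol list; further genes are given to account for all 39. The result of 1 gene of that other list is counted but not reported here. Same-numbered animals of the groups deviated together with correlations of 0.0921, 0.0187 and 0.117, so the numbers were not taken to pair them.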

Additional observations from a re-analysis of the deposited data

How the results depend on the processing

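Of all features, 2715 passed as reported, and 12751 passed with spike-in scaling, 609 without a filter on dim probes, 4126 with array weights, 350 with slide as a block, 120 on slide 1 alone, 353 with a replicate block, and 335 to 1232 when each animal was left out. Synthesis enzymes passing went from 1 (Sc5d, lower) to 3 with spike-in scaling, where Acat2, Mvk and Fdft1 were higher and Sc5d did not pass. They went to 2 with array weights (Hmgcs1 and Sc5d, lower), 2 with the replicate block (Idi1 and Sqle, lower, without Sc5d), 0 without the filter, 0 with slide as a block and on slide 1 alone, and 0 to 1 when each animal was left out (Sc5d or Hmgcs1, lower). Transport genes went from 1 (Abcg8, lower) to 2, by the addition of Abcg1, higher, with normexp, median centring, spike-in scaling, the all-array filter, trend and robust options and array weights, and to 0 without the filter, with slide as a block, on slide 1 alone and with the replicate block; leaving out each animal gave 0 to 1, where the 1 was Abcg1, higher, and Abcg8 passed in none of these fits. Sensing genes went from 0 to 1 with spike-in scaling (Insig2, higher). Lipoprotein genes went from 0 to 3 with normexp (Mttp higher, Apoc3 and Lipc lower), 3 with spike-in scaling (Mttp, Apoa1 and Scarb1, higher) and 3 with trend and robust options (Mttp higher, Lcat and Lipc lower), to 2 with quantile normalization (Lcat and Lipc, lower), and to 1 with the all-array filter, array weights or a common floor (Lipc, lower). The share of higher calls over all features was 63.6% as reported, 74.2% with median centring and 97.6% with spike-in scaling. Sc5d, Abcg8, Apom, Apoa2 and Sort1 kept their direction in all 22 alternatives. The cause of these changes was not tested, except that slide 1 alone and the fits without an animal use fewer arrays and the fit without a filter tests more probes.

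With slide as a block the difference rests on treated replicate 1 alone, and within slide 2 no comparison can be made because it holds treated animals only. Signs of 18 of 39 genes changed with spike-in scaling, 6 with normexp, and 0 to 6 when an animal was left out.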
